A study of Homo sapiens with 28 samples.

Results

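The SOCS family holds 8 genes in the human genome, CISH and SOCS1 to SOCS7, and all 8 were examined for N6-methyladenosine (m6A) on chromatin-associated RNA (caRNA), the RNA that remains bound to chromatin when nuclei are fractionated. They were taken by name from the 20033 protein-coding genes of the annotation. A peak, meaning a stretch where RNA pulled down with an antibody against m6A gave more reads than the local background, was assigned to a gene if it overlapped the gene or the 1000 bases before its start, with the strands kept apart. Peak lists of 14 immunoprecipitated (IP) libraries from 3 cell lines were used. Unmodified cells were HepG2, a hepatoma line (HepG2 WT, n = 2), and K562, a myelogenous leukaemia line (K562 WT, n = 2). Knockdown (KD) of the RNA-binding protein RBFOX2 by a short hairpin RNA from a lentivirus was studied in K562 (K562 Control, n = 2, and K562 KD, n = 2) and in NB4, an acute promyelocytic leukaemia line (NB4 Control, n = 3, and NB4 KD, n = 3). Control cells carried a hairpin without this target, and which of the study's RBFOX2 hairpins the KD libraries carried is not given in the sources used here. The study's methods speak of biological replicates, and the labels do not say whether these were separate cultures. The p-values therefore measure only the spread between these libraries.

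SOCS proteins are feedback inhibitors of cytokine receptors that signal through JAK kinases and STAT transcription factors. STATs switch on several SOCS genes, and the proteins then return to the receptor complex through their SH2 domain. Their C-terminal SOCS box binds elongins B and C and cullin 5, which makes a ubiquitin ligase. In blood cells CISH, SOCS1, SOCS2 and SOCS3 are classical cytokine-induced genes, while SOCS4 to SOCS7 are linked more to growth factor receptors and adaptor proteins. m6A is laid down on the transcript in short sequence contexts with an A followed by C and is often dense near stop codons and in long internal exons.

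Overlapping peaks of the 14 lists were merged by strand into regions. Of 86481 regions in the series, 26 belonged to the 8 genes, 20 on the gene strand and 6 on the opposite strand, and these held 167 and 17 peaks. The region of a gene with the highest mean rank is called its leading region. All 8 leading regions lay in or beside an exon, and 7 of the 8 held, within 75 bases of their median summit, at least 1 of 5 contexts of m6A (GGACT or else GGACA or else GGACC or else AGACT or else GAACT) on the strand of the gene. Over all regions of the series 72.1% of such windows held one of the 5, so the share among the SOCS genes was near the background. The exception was SOCS1, where the nearest context lay 97 bases before the summit. The reference sequence (hg38, 29 bases, 5′ to 3′ on the gene strand, DNA letters) at the context nearest the median summit is printed for the leading regions and for a further SOCS7 region that enters the KD comparison, with the context in capitals.

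CISH, 3′ UTR, chr3:50607544-50607572, minus strand: gcaccctggaggGGACAtcagccccagct
SOCS1, intron 1, chr16:11255641-11255669, minus strand: acggatccgcgcGGACTtggtgctccgtg
SOCS2, coding exon 2, chr12:93574773-93574801, plus strand: aggcaccagaagGAACTttcttgattaga
SOCS3, 3′ UTR, chr17:78358070-78358098, minus strand: ttcgggaatgctGAACTaatgagaactgc
SOCS4, coding exon 3, chr14:55043521-55043549, plus strand: atgggtaagcacAGACTtgtctcagactg
SOCS5, coding exon 2, chr2:46759454-46759482, plus strand: tgaaataagtggGGACAgttctgcaattc
SOCS6, coding exon 2, chr18:70325700-70325728, plus strand: gaattttgatccGAACTctgctcctgggg
SOCS7, coding exon 1, chr17:38352547-38352575, plus strand: gcaggccggggaGGACCccacggaaacga
SOCS7, 3′ UTR, chr17:38399601-38399629, plus strand: ttctctgtgcagAGACTttggttccccac

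In SOCS5 and SOCS3 the printed context lay 4 bases from the median summit, after it in SOCS5 and before it in SOCS3. In CISH it lay 8 bases before the summit, and in SOCS4 it lay 17 bases after it. The distance was 36 bases in SOCS6, 41 bases in SOCS2 and 67 bases in SOCS7. The RBFOX2 motif TGCATG was in 0 of the 20 windows on the gene strand, against 3.55% of all windows, and the motif AGATG was in 5 of 20, against 23.1%. Motifs were read on the strand of the region alone and could overlap one another. A peak is far wider than a motif, and these matches describe letters in a window, not measured sites.

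The place of the summit was steady for most of the family. The SOCS2 summit lay in the coding part of exon 2 of 2 within 17 bases of the same point in all 12 libraries that listed it. The SOCS3 summit lay in the 3′ UTR, 340 bases past the stop codon, within 14 bases in all 8 libraries that listed it. The SOCS5 summit lay in coding exon 2 of 2 within 39 bases in 14 of 14 libraries, and the SOCS7 summit in coding exon 1 of 10 within 33 bases in 14 of 14. CISH was less steady, with summits within 52 bases of the median in 9 libraries and 237 to 276 bases further into the 3′ UTR in the other 5. These 5 were K562 Control 2, NB4 Control 2 and NB4 KD 1, 2 and 3. The median itself lay 59 bases past the stop codon. SOCS4 and SOCS6, whose coding sequence is in 1 exon, had summits within 75 bases of the median in 12 of 14 libraries each. The libraries outside that range were HepG2 WT 1 and NB4 Control 3 for SOCS4, and NB4 Control 1 and NB4 KD 2 for SOCS6.

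**Figure D1:**
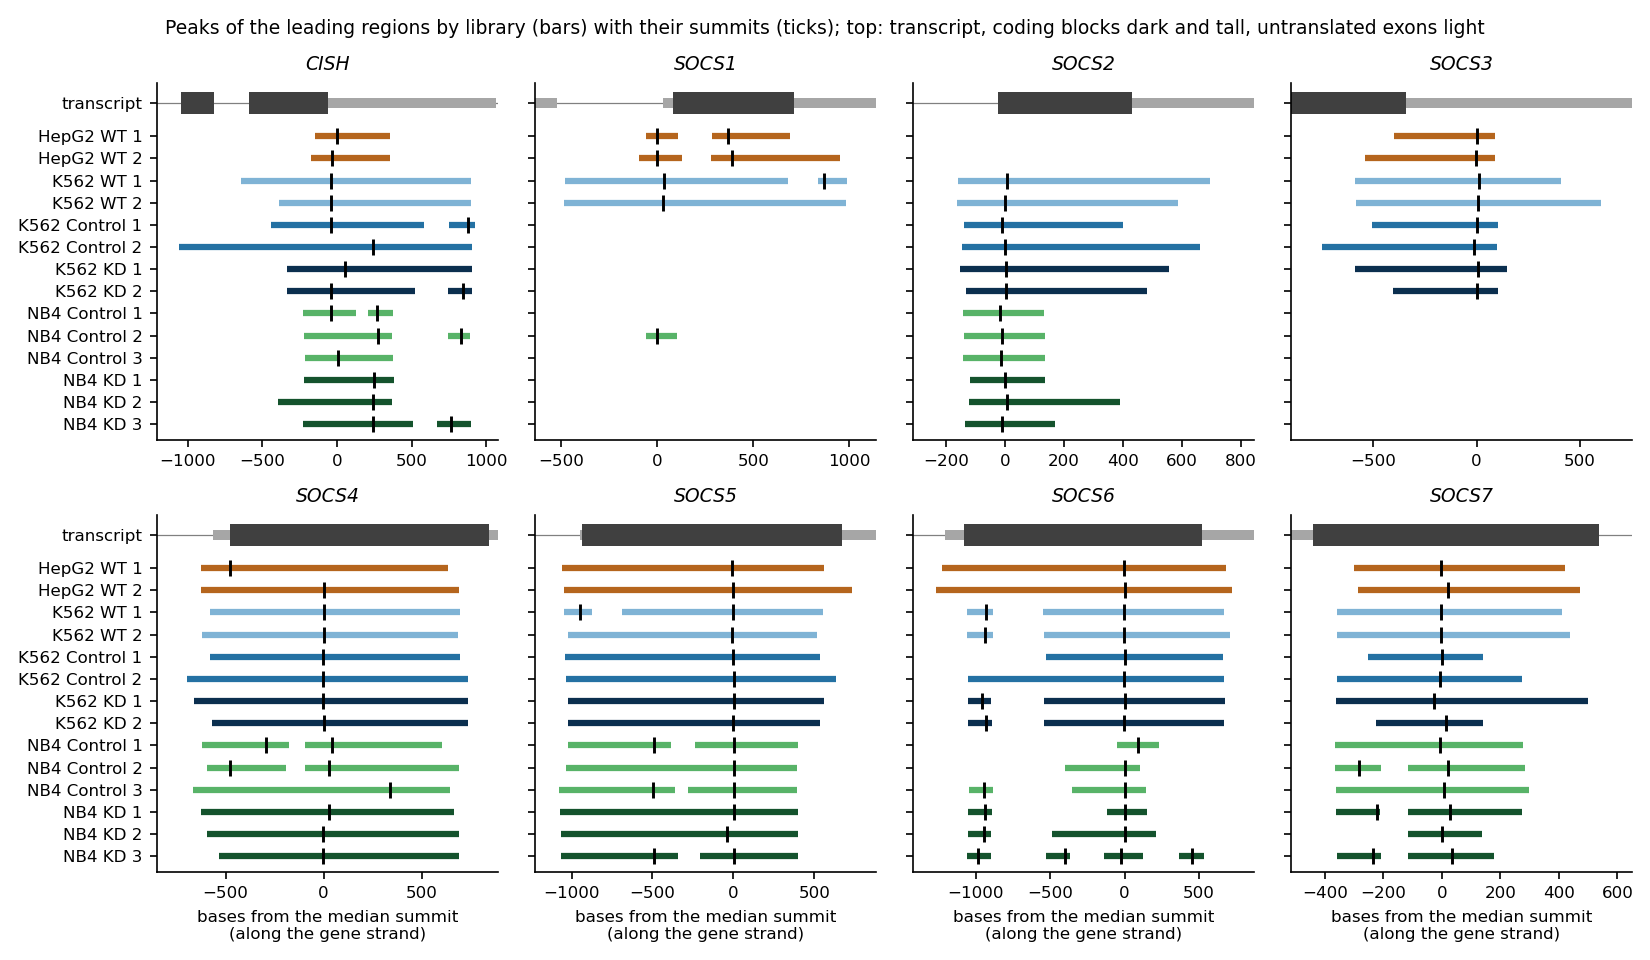
Peaks of the 8 leading regions in each of the 14 libraries. The x axis is the distance in bases from the median summit along the gene strand, each row is a library, bars are the listed peaks, black ticks are summits, and the top row shows the transcript with coding blocks dark and tall. Ticks of SOCS2, SOCS3, SOCS5 and SOCS7 stack at 1 position, and SOCS3 has no bar in NB4. The SOCS2 peaks of NB4 are shorter than those of K562, and NB4 peaks are also shorter over whole lists.

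Values are given on 2 scales. The fold is the enrichment at the summit over the local background as deposited. The percentile is the place of the peak when its list is ordered by −log10 q, with 100 at the top, and it was used for comparisons because folds move with depth. Depth, expressed as the effective reads recovered from each list (M, 1e+06 reads), was 29.2 and 32.9 M in HepG2 WT, 24.9 and 25.6 M in K562 WT, 12.6 to 19.5 M in K562 Control and KD, and 10.8 to 21.9 M in NB4. The 14 lists held 22700 to 44088 peaks. The lowest pileup of any peak in a list was 1.21 to 1.76 reads per M. A site with a higher local background needed a higher pileup to be listed. A list holds no transcript levels, so a weak or missing peak can come from less RNA as well as from less m6A, and these cannot be told apart. HepG2 libraries listed 4 of 9 hepatocyte markers in both libraries, with ALB and AFP at 0 libraries. K562 groups listed 7 or 8 of 9 erythroid markers, and NB4 groups 8 of 9 promyelocyte markers, with ELANE at 0 libraries. RBFOX2 itself carried 0 to 3 peaks per library, with 2 and 3 in K562 Control, 3 and 3 in K562 KD, 1, 2 and 2 in NB4 Control and 2, 1 and 1 in NB4 KD, and peak lists do not give the extent of the knockdown.

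Most SOCS genes carried m6A peaks in every line. A gene counted as listed in a group if at least 2 of its libraries had a peak on the gene strand. HepG2 WT listed 7 of the 8 genes, all but SOCS2, where 36.6% of all protein-coding genes were listed. K562 WT listed all 8 (47.3% of all genes). K562 Control and K562 KD each listed the 7 genes other than SOCS1 (42.7% and 42.4%). NB4 Control and NB4 KD each listed the 6 genes other than SOCS1 and SOCS3 (42.7% and 44.3%). CISH, SOCS4, SOCS5, SOCS6 and SOCS7 were each listed by the same leading region in all 14 libraries. That was 5 of the 20 SOCS regions on the gene strand, and 8.91% of all regions of the series were in all 14 lists.

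**Figure D2:**
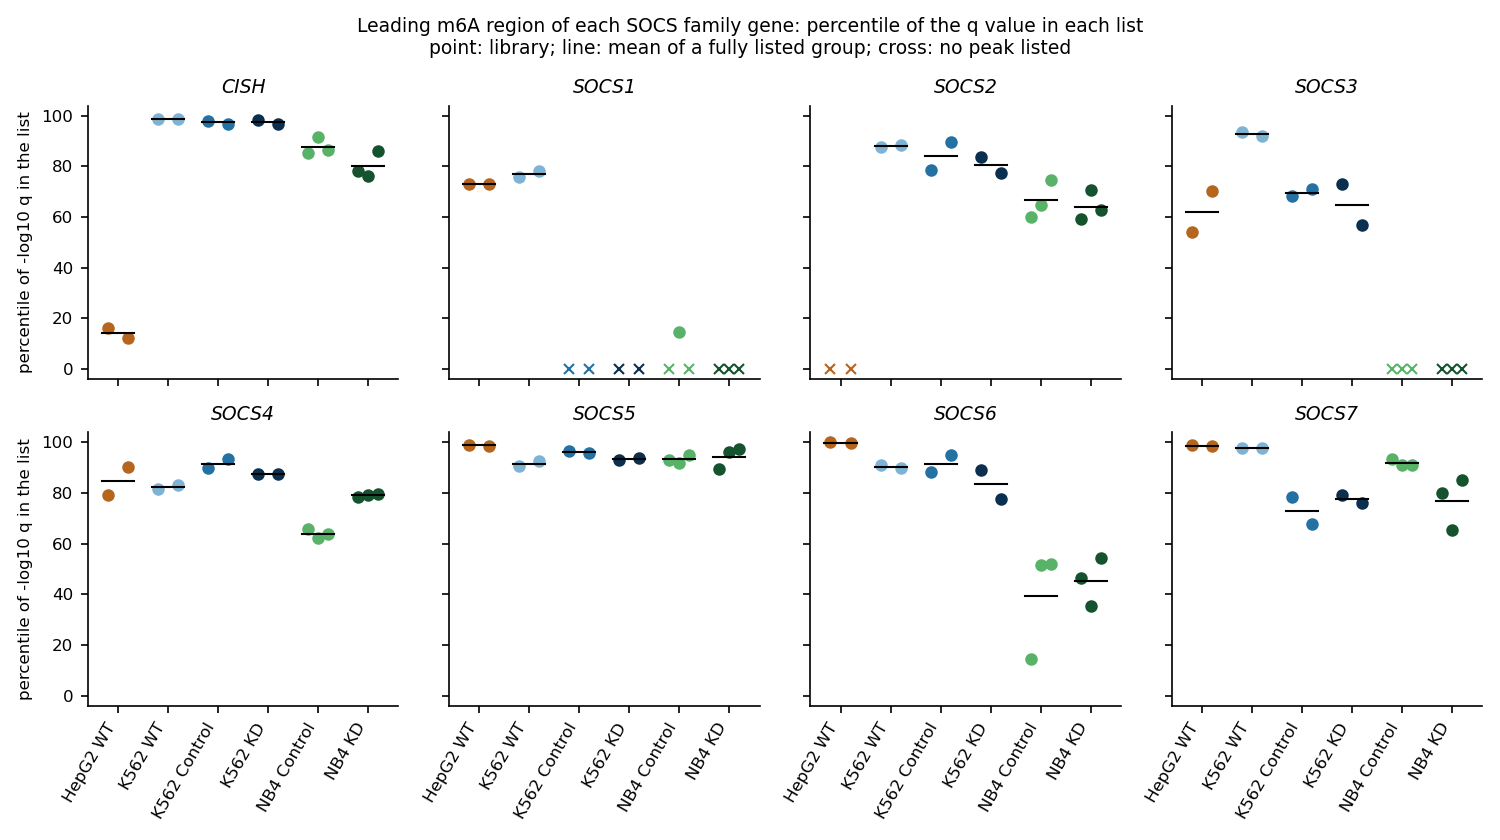
Percentile of −log10 q of the leading region of each SOCS family gene. The y axis runs from the bottom of a list (0) to the top (100), points are libraries, black lines are means of groups in which every library listed the region, and crosses are libraries with no peak. CISH is near 100 in K562 and at 12.2 and 16.3 in HepG2, SOCS3 is crossed out in all 6 NB4 libraries, and SOCS6 is lower in NB4 than in the other lines.

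CISH encodes CIS, an inhibitor of signalling from erythropoietin, growth hormone and interleukin receptors and a target of STAT5. Its leading region (chr3:50606624-50608606, minus strand, 1983 bases) ran from exon 2 across the stop codon into the 3′ UTR of exon 3 of 3. The percentile was 16.3 and 12.2 in HepG2 WT, 98.6 and 98.5 in K562 WT, 97.9 and 96.8 in K562 Control, and 98.5 and 96.5 in K562 KD. It was 85.4, 91.7 and 86.4 in NB4 Control, and 78.3, 76.4 and 86.0 in NB4 KD. The 6 K562 libraries thus lay above the 6 NB4 libraries, which lay above both HepG2 libraries, with no overlap between lines. The share of all regions in which the lines separate in this way was not computed, here or for the genes below. The folds were 3.12 and 3.03 in HepG2 WT, 17.98 and 19.67 in K562 WT, 30.2 to 41.0 in K562 Control and KD, and 9.75 to 17.2 in NB4. Between WT cells the difference of 84.3 percentile points (K562 WT 98.6 ± 0.082, HepG2 WT 14.2 ± 2.92, SD, n = 2 each) was larger than that of 99.97% of the 12860 regions listed in both lines, and p was 0.333, below which an exact two-sided permutation of 2 against 2 libraries cannot go. Of these regions 56.5% were higher in K562 WT without overlap. A weaker region in intron 1 (chr3:50611345-50611747) was listed in 4 K562 libraries at percentiles of 17.98 to 56.43 and in none of the other lines.

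SOCS1 binds and blocks JAK kinases through a kinase inhibitory region and is the main brake on interferon-gamma signalling. Its region (chr16:11254569-11256045, minus strand, 1477 bases) ran from the only intron through the coding sequence in exon 2 into the 3′ UTR. The median summit lay in the intron, while the summit of both K562 WT libraries lay in the 5′ UTR of exon 2. The region was listed in HepG2 WT at percentiles of 73.0 and 73.2, in K562 WT at 75.9 and 78.1, and in NB4 Control 2 at 14.5. The other 9 libraries, all hairpin libraries of K562 and NB4, had no SOCS1 peak. In K562 WT the pileup was 6.49 and 6.95 reads per M. The lowest pileup of any peak in the K562 Control lists was 1.48 and 1.38 reads per M.

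SOCS3 is the main inhibitor of receptors that use gp130, such as the interleukin 6 receptor, and of the G-CSF receptor. Its leading region (chr17:78357479-78358826, minus strand, 1348 bases) spanned part of the coding sequence and of the 3′ UTR. The percentile was 53.9 and 70.1 in HepG2 WT, 93.6 and 91.9 in K562 WT, 68.1 and 71.1 in K562 Control, and 72.9 and 57.0 in K562 KD. No NB4 library listed it. The pileup in K562 Control was 7.89 and 6.96 reads per M. In the NB4 lists the lowest pileup of any peak was 1.42 to 1.76 reads per M. SOCS3 was the only SOCS region present in every K562 library and in no NB4 library (1 of 19 on the gene strand, against 8.56% of all regions). K562 WT lay above the other 3 groups, which overlapped one another. Its fold was 19.17 and 17.96 in K562 WT, 12.6 and 11.4 in K562 Control, 14.2 and 10.2 in K562 KD and 4.54 and 6.15 in HepG2 WT. A further 3′ UTR region (chr17:78357111-78357316) was listed in both K562 WT libraries only, at percentiles of 42.4 and 35.2.

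SOCS2 restrains growth hormone signalling and is a STAT5 target. Its leading region (chr12:93574584-93575441, plus strand, 858 bases) had percentiles of 87.6 and 88.3 in K562 WT, 78.6 and 89.7 in K562 Control, and 83.5 and 77.3 in K562 KD. In NB4 it had 60.1, 64.8 and 74.7 in Control, and 59.1, 70.6 and 62.6 in KD. All 6 K562 libraries lay above all 6 NB4 libraries, and within each line Control and KD overlapped. Neither HepG2 library listed SOCS2, and the region was the only one of the family in every K562 and in no HepG2 library (1 of 17, against 14.6% of all regions), as well as in every NB4 and in no HepG2 library (1 of 15, against 11.2%). The lowest pileup of any peak in the HepG2 lists was 1.28 and 1.21 reads per M. The SOCS2 pileup was 4.26 to 14.6 reads per M in the 12 libraries that listed it. Peaks were 540 to 856 bases wide in K562 and 255 to 513 bases wide in NB4. Over whole lists the median peak width was 303 to 343 bases in K562 and 243 to 258 bases in NB4.

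SOCS4 and SOCS5 are close relatives that act on the epidermal growth factor receptor. Of the 5 genes listed in all 14 libraries, SOCS5 had the narrowest range of percentiles. Its leading region (chr2:46758389-46760194, plus strand, 1806 bases), on a stretch that the annotation also assigns to the long non-coding RNA LINC01118, had percentiles of 99.0 and 98.4 in HepG2 WT, 90.6 and 92.5 in K562 WT, 96.6 and 95.8 in K562 Control, and 93.1 and 93.7 in K562 KD. In NB4 it had 92.8, 91.9 and 95.0 in Control, and 89.5, 96.2 and 97.4 in KD. The lowest of the 14 values was thus 89.5, and K562 and NB4 overlapped.

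The SOCS4 leading region (chr14:55042819-55044256, plus strand, 1438 bases) had percentiles of 79.1 and 90.3 in HepG2 WT, 81.5 and 83.0 in K562 WT, 89.9 and 93.4 in K562 Control, and 87.3 and 87.6 in K562 KD. In NB4 it had 65.8, 62.1 and 63.9 in Control, and 78.2, 79.2 and 79.8 in KD. NB4 Control lay below all other libraries, NB4 KD lay below all K562 libraries, and HepG2 WT overlapped NB4 KD and the K562 groups. A weaker 5′ UTR region (chr14:55027254-55027469) was listed in 8 libraries, 5 of K562 and 3 of NB4, at percentiles of 18.7 to 58.2.

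SOCS6 binds the KIT receptor and insulin receptor substrates. Its leading region (chr18:70324480-70326469, plus strand, 1990 bases) was at the very top of the HepG2 lists, at percentiles of 99.9 and 99.7. It had 90.9 and 89.8 in K562 WT, 88.2 and 94.8 in K562 Control, and 89.0 and 77.7 in K562 KD. In NB4 it had 14.7, 51.5 and 51.8 in Control, and 46.4, 35.4 and 54.3 in KD. HepG2 WT lay above K562 and K562 above NB4 without overlap, K562 Control overlapped K562 WT and K562 KD, and K562 WT lay above K562 KD. The peak at the common summit was 1191 to 1990 bases wide in HepG2 and K562 and 265 to 699 bases wide in NB4. Peaks were narrower in NB4 over whole lists as well, with medians of 243 to 258 bases against 303 to 343 bases in HepG2 and K562. In NB4 KD 2 a peak of 158 bases, with its summit at -942 bases from the median summit, ranked above the one at the common summit. The fold was 11.8 and 14.5 in HepG2 WT, 16.3 to 26.3 in K562 and 4.88 to 7.06 in NB4.

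SOCS7 binds adaptor proteins such as NCK and has a nuclear form. It differs from the other members in gene structure, with 9 coding exons, against 1 to 3 in the others. Its leading region (chr17:38352129-38352994, plus strand, 866 bases) lay in exon 1 and had percentiles of 98.8 and 98.3 in HepG2 WT, 97.8 and 97.7 in K562 WT, 78.4 and 67.7 in K562 Control, and 79.2 and 76.1 in K562 KD. In NB4 it had 93.3, 91.1 and 90.9 in Control, and 80.2, 65.4 and 85.0 in KD. The WT libraries were highest, NB4 Control came next, and the remaining 3 groups overlapped one another.

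The other SOCS7 regions differed in their spread over the lines. A 3′ UTR region in exon 10 (chr17:38399414-38399872) was listed in 13 libraries. Its percentile was 17.5 and 29.7 in HepG2 WT, 2.88 to 24.9 in the 5 K562 libraries that listed it, 74.4, 74.9 and 78.3 in NB4 Control, and 62.3, 63.5 and 58.9 in NB4 KD. The 6 NB4 libraries therefore lay above the rest. A region in intron 4 (chr17:38366186-38366373) was listed only in the WT libraries, at 84.9 and 77.8 in HepG2 and 37.3 and 49.3 in K562. With SOCS3 it was 1 of the 2 SOCS regions of 15 on the gene strand that were in every HepG2 and no NB4 library (10.7% of all regions). No SOCS region was in every HepG2 and no K562 library (0 of 17, against 7.56%) or in every NB4 and no K562 library (0 of 19, against 4.43%).

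**Figure D3:**
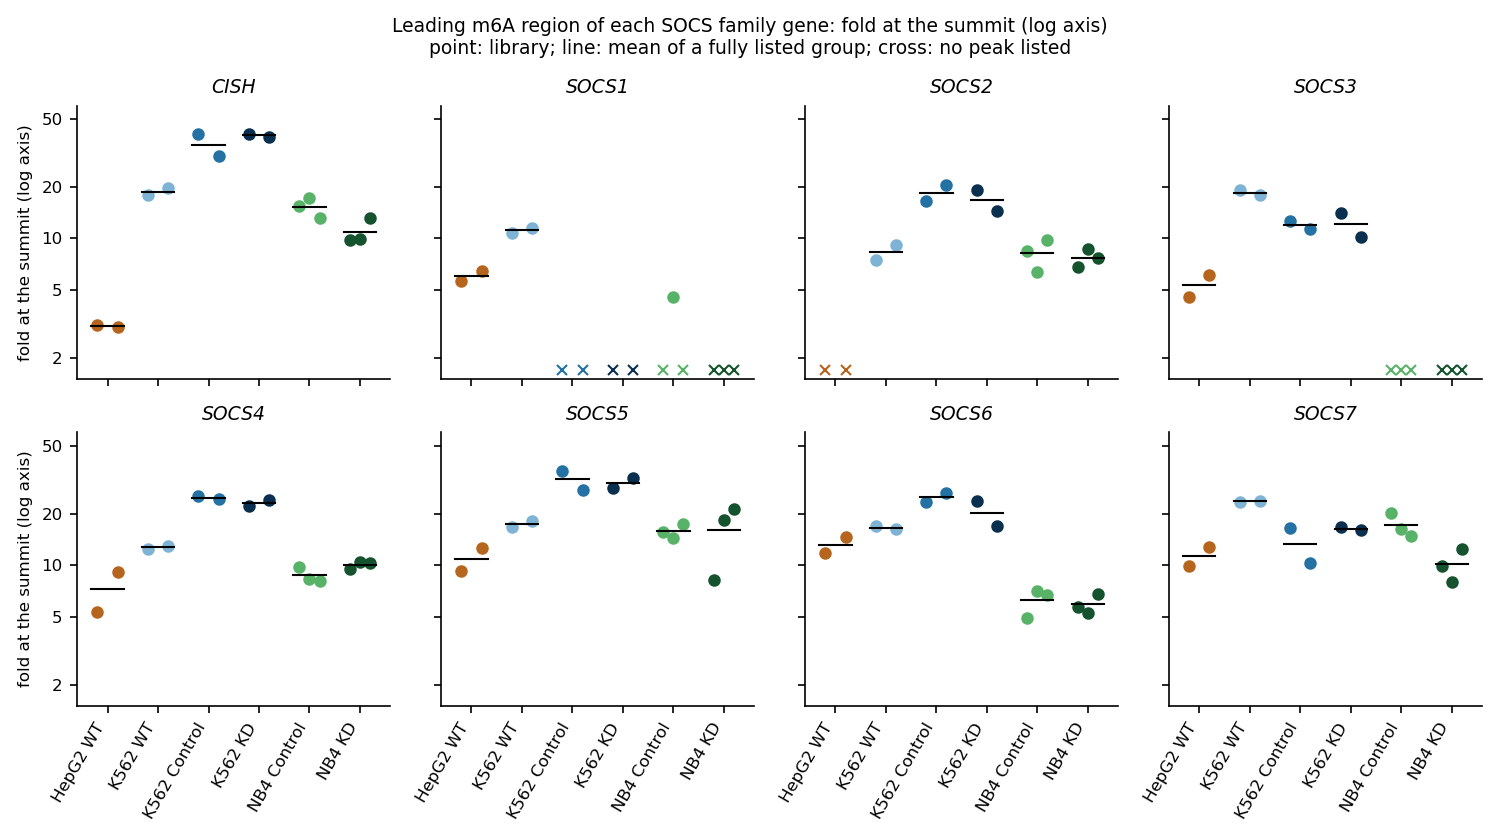
Fold at the summit of the leading regions, on a log axis, by group. Points are libraries, black lines are means of groups in which every library listed the region, and crosses mark libraries without a peak. CISH reaches 41.0 in K562 and is 3.12 and 3.03 in HepG2, and SOCS6 stays at or below 7.06 in NB4.

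Whether NB4 and K562 differed was tested with the label of the line permuted within Control and within KD (exact permutation test, two-sided, 100 arrangements, smallest p 0.01), with Benjamini-Hochberg adjustment over the 10535 regions listed in all 10 libraries. For CISH, NB4 was lower by 13.4 percentile points (means of 87.8 against 97.3 in Control and 80.2 against 97.5 in KD, exact p = 0.01, adjusted p = 0.0353). For SOCS4 it was lower by 18.03 points (63.9 against 91.6 and 79.1 against 87.4, exact p = 0.01, adjusted p = 0.0353). For SOCS6 it was lower by 45.1 points (39.3 against 91.5 and 45.4 against 83.4, exact p = 0.01, adjusted p = 0.0353), and 1.97% of all regions had a lower value. These 3 of 6 leading regions passed, all lower in NB4, and 28.4% of all regions passed, 14.9% lower and 13.5% higher in NB4. Before adjustment p was under 0.05 for 4 of the 6, these 3 and SOCS2, against 46.1% of all regions.

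The difference was -17.0 points for SOCS2 (pooled SD within groups 6.54, exact p = 0.02, adjusted p = 0.0543). It was -0.97 points for SOCS5 (pooled SD 2.30, exact p = 0.57, adjusted p = 0.662) and 8.96 points for SOCS7 (pooled SD 6.49, exact p = 0.15, adjusted p = 0.236), and none of these 3 passed. The 3 calls needed all 10 libraries. With any 1 of them left out, 0 of all regions passed, since fewer arrangements could be made, and the differences ranged from -14.8 to -12.4 for CISH, -18.9 to -17.2 for SOCS4 and -48.2 to -38.9 for SOCS6. The CISH call was also lost when peaks were ranked by fold (-6.06 points, exact permutation, adjusted p = 0.0719). The CISH peaks compared here had summits further into the 3′ UTR in NB4 Control 2, every NB4 KD library and K562 Control 2. With regions narrowed to 150 bases around each summit, CISH and SOCS4 were not in 1 window in all 10 libraries and could not be tested, and SOCS6 passed (-45.6 points, exact permutation, adjusted p = 0.0364).

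Between the WT cells of K562 and HepG2 the values of 6 of the 7 tested leading regions did not overlap, in both directions. Apart from CISH, K562 WT was higher for SOCS3 by 30.7 points and for SOCS1 by 3.91 points. It was lower for SOCS6 (-9.45 points), SOCS5 (-7.16 points) and SOCS7 (-0.82 points). SOCS4 overlapped, with a difference of -2.45 points and a pooled SD of 5.64. Over all 12860 regions, 56.5% were higher in K562 WT without overlap, 20.1% were lower without overlap, and the median difference was 8.74 points. No p below 0.333 was possible here.

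The effect of RBFOX2 KD was compared next, with all 6 leading regions that were listed in every Control and KD library. Over both lines no SOCS region passed, and 0% of the 10535 regions did (exact permutation test within lines, two-sided, 120 arrangements, smallest p 0.0167), while 735 regions, 6.98%, had an unadjusted p under 0.05. The mean KD minus Control difference was 5.48 percentile points for SOCS4 (exact p = 0.117, adjusted p = 0.56), -5.15 for SOCS7 (exact p = 0.383), -3.71 for CISH (exact p = 0.2), -3.11 for SOCS2 (exact p = 0.433), -1.03 for SOCS6 (exact p = 0.883) and -0.84 for SOCS5 (exact p = 0.617). The median over all regions was 0.78 points. On the log2 scale of the fold the 6 differences ran from -0.22 for SOCS7 to 0.056 for SOCS4, with exact p from 0.333 to 0.85 and 0 of all regions called (692 at an unadjusted p under 0.05, 6.57%).

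In NB4, SOCS4 was higher and SOCS7 lower in KD than in Control. The mean SOCS4 percentile in Control was 63.9 ± 1.87 (SD, n = 3), that in KD was 79.1 ± 0.77 (SD, n = 3), and the groups did not overlap. The difference of 15.1 points was larger than the pooled SD of 1.43, and the exact two-sided permutation p was 0.1, its lowest possible value with 3 libraries a group (adjusted p = 0.402). Of all 17040 regions tested in NB4, 17.8% were higher in KD without overlap, and the median difference was 2.71 points. The SOCS4 fold itself overlapped between the groups, at 9.77, 8.34 and 8.07 in Control and 9.51, 10.4 and 10.3 in KD. Effective depth was 10.8, 14.2 and 17.2 M in NB4 Control and 21.9, 18.6 and 16.8 M in NB4 KD, and with pileups scaled to the shallowest list and peaks kept where their Poisson p still passed the difference was 15.5 points. That scaling did not make the lists alike in size, with 29606 to 33320 peaks left in NB4 Control and 36513 to 39162 in NB4 KD. When peaks were ranked by fold it was 9.42 points.

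SOCS7 went the other way in NB4. The leading region in exon 1 had a mean percentile of 91.8 ± 1.35 (SD, n = 3) without and 76.9 ± 10.2 (SD, n = 3) with KD, a difference of -14.9 points (exact permutation, two-sided, p = 0.1, adjusted p = 0.402). Its fold was 20.1, 16.4 and 14.7 in Control and 9.94, 7.94 and 12.5 in KD, again without overlap. The 3′ UTR region of the same gene, which shares the transcript and is no independent case, differed by -14.3 points (75.8 in Control and 61.6 in KD, pooled SD 2.27, exact permutation, two-sided, p = 0.1), and its fold of 10.1, 8.849 and 8.001 in Control and 7.13, 7.69 and 5.93 in KD did not overlap either. Of all regions, 7.12% were lower in NB4 KD by percentile without overlap. The share of all regions whose folds did not overlap was not computed. Folds move with depth, which was 10.8 to 17.2 M in NB4 Control and 16.8 to 21.9 M in NB4 KD. The leading-region difference was -9.17 points without NB4 KD 2, the lowest library. The CISH difference was -7.58 points, with overlapping groups (exact permutation, two-sided, p = 0.2). The CISH peaks compared had summits at differing places, further into the 3′ UTR in NB4 Control 2 and in every NB4 KD library.

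In K562, SOCS4 was lower in KD by 4.17 points and SOCS5 by 2.79 points without overlap (exact permutation, two-sided, p = 0.333 for each, the smallest possible), as were 16.7% of the 24783 regions tested, while 13.3% were higher. The other 5 leading regions overlapped between K562 Control and KD, with differences from -8.15 points for SOCS6 to 4.61 points for SOCS7. SOCS1 had no peak in any K562 Control or KD library. The difference between the lines in the KD change was -19.3 points for SOCS4 (exact permutation, two-sided, p = 0.0167, adjusted p = 0.428) and 19.5 points for SOCS7 (exact permutation, two-sided, p = 0.0333, adjusted p = 0.43), K562 minus NB4. Neither passed after adjustment, and 7.75% of all regions had an unadjusted p under 0.05.

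**Figure D4:**
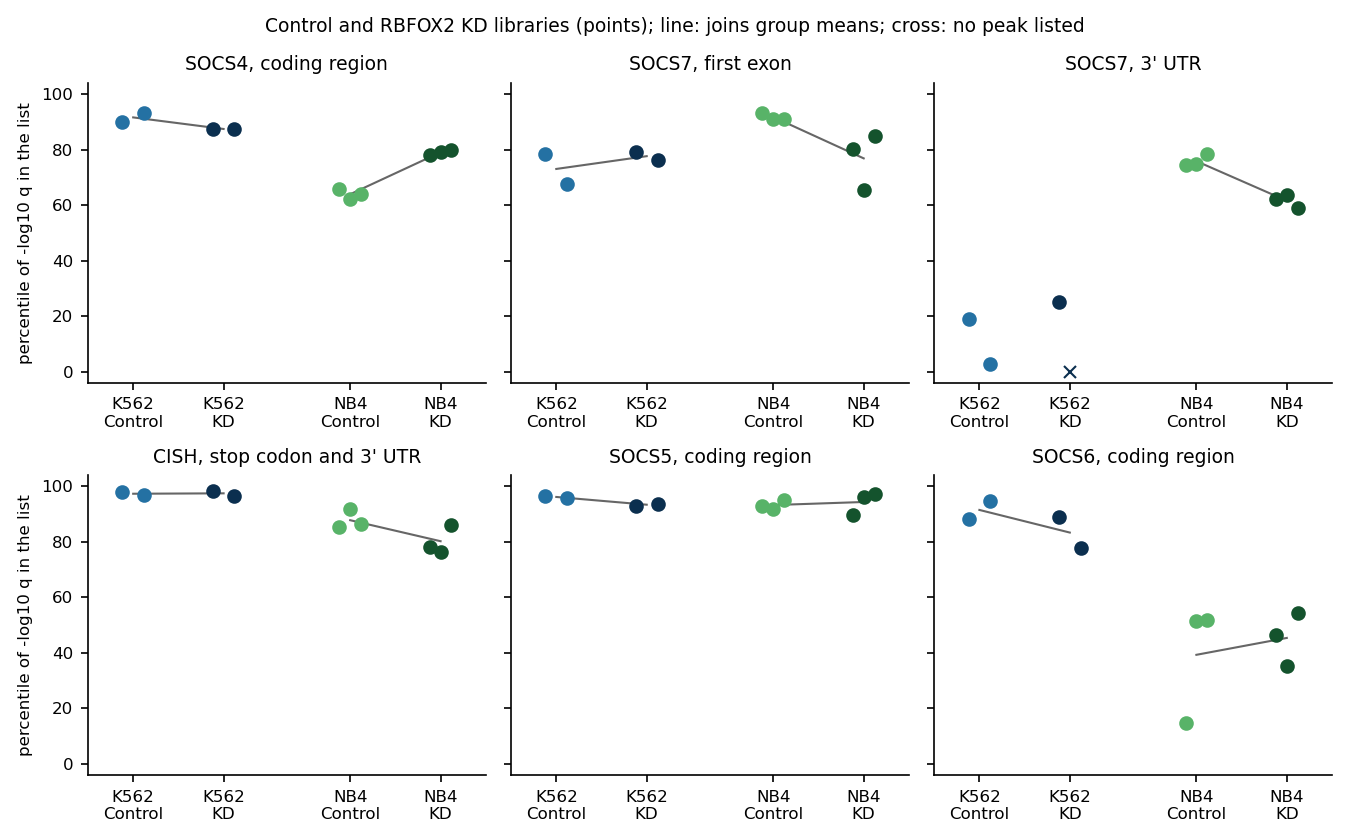
Percentile of 6 SOCS regions in Control and RBFOX2 KD libraries of K562 and NB4. Points are libraries, lines join group means where every library listed the region, and the cross is a library without a peak. In NB4 the SOCS4 points of KD (78.2 to 79.8) lie above those of Control (62.1 to 65.8), and both SOCS7 regions lie lower in KD.

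On the gene strand, 1 SOCS region appeared on KD in K562 and none vanished in either line. Regions on the opposite strand in K562 are given further below. In K562 no region on the gene strand was present in both Control libraries and absent from both KD libraries (1.71% of all 46100 regions, both strands together). The reverse held for 1 of 11, against 1.73% of all regions. This was the SOCS2 region in coding exon 1 of 2 (chr12:93572589-93573123), at percentiles of 31.4 and 14.9 in K562 KD. The same region was stronger in K562 WT, at 82.8 and 76.5, and among the 6 K562 libraries only the 2 Control libraries did not list it. In NB4 no SOCS region on either strand was lost (0.619% of 48157 regions) or gained (3.52%).

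K562 WT and K562 Control libraries were also compared, a choice made after the lists had been seen. Of the 16 SOCS regions on the gene strand found in these 4 libraries, 5 were in both WT and in neither Control library, against 15% of all regions, and none showed the reverse (5.28%). They were the SOCS1 region, the SOCS2 region in exon 1 and one near the gene start (chr12:93570047-93570206), the second SOCS3 3′ UTR region and the SOCS7 intron region. The 4 other than the SOCS2 exon 1 region were also absent from K562 KD, as were 12.3% of all regions. WT lists were deeper than Control lists (24.9 and 25.6 M against 14.8 and 19.5 M), and WT cells carried no hairpin. The count over both strands was 7, also after pileups were scaled to the shallowest list, which left 42772 and 42147 peaks in WT and 36717 and 38017 in Control. The part of depth in this count was not tested further.

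Peaks on the strand opposite to a SOCS gene were few and mostly low. Opposite the CISH 3′ UTR (chr3:50607474-50607777, plus strand) a region was listed in K562 WT at percentiles of 6.91 and 14.3 and in K562 KD at 3.18 and 16.6. There the pileup was 2.03 to 3.25 reads per M, against 17.8 to 25.5 reads per M at the CISH summit on the gene strand in the same libraries. Opposite SOCS6 coding exon 2 (chr18:70325600-70325967, minus strand) a region was listed in HepG2 WT at 53.9 and 36.9, in K562 WT 1 at 2.58 and in K562 Control at 4.01 and 37.9, and in no KD library of K562. In K562 Control against KD, 3 opposite-strand regions were tested. The SOCS6 region was lost on KD, 1 of 3 against 1.71% of all regions. The CISH 3′ UTR region was gained, 1 of 3 against 1.73%. Both regions lay opposite the leading region of the same gene. The remaining 4 opposite-strand regions of the family lay on other annotated genes of that strand. These genes were MAPKAPK3 before CISH, RMI2 across SOCS1, SOCS2-AS1 and WDHD1 before SOCS4, and the regions were listed in 3, 2, 1 and 2 libraries.

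Of the regions on the gene strand not yet described, those in a single library lay before SOCS2 exon 1 (K562 WT 1, percentile 0.11), at the start of SOCS5 intron 1 (NB4 KD 1, 5.18), past the SOCS5 transcript end (NB4 Control 3, 8.13) and at SOCS7 exon 6 (HepG2 WT 2, 34.8). A region in SOCS5 intron 1 (chr2:46706965-46707152) was listed in 4 of 6 NB4 libraries, 2 of each group, at 31.7 to 51.8, and in no other line. The annotation holds processed pseudogenes of SOCS2, SOCS5 and SOCS6, so reads could be shared with these copies, and how such reads were counted is not given in the sources used here.

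For the 3 genes that were not in all lists, the protein-coding genes with the most similar percentiles over the 14 libraries were sought (smallest Euclidean distance, 0 where not listed). For SOCS3 they were ABHD8 (distance 22.7 points), TRIM3 (25.8) and ZSCAN31 (26.1). For SOCS2 they were CCDC8 (18), MAP3K20 (23.4) and KLHDC10 (25.6), and for SOCS1 ABCA5 (15.7), TMEM25 (21.3) and DMTN (22.6).

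The genes that SOCS proteins act with were read in the same way, beside the 36.6% to 47.3% of all protein-coding genes listed per group. Of the 4 JAK kinases, HepG2 WT listed 2 and every other group 3, TYK2 highest and JAK3 in no library. Of the 7 STAT factors 4 to 6 were listed per group, STAT6 highest. Of 20 cytokine receptors 9 to 13 were listed, led by the interferon receptor subunit IFNAR2. Of the 5 subunits of the SOCS box ligase only ARIH2 and CUL5 were listed in 2 libraries of any group, with CUL5 in every HepG2 and K562 library and in no NB4 library, and the elongin genes ELOB and ELOC were in 0 and 1 libraries. Of the 6 other SOCS box genes 2 to 4 were listed, SPSB2 highest, and of the 9 other inhibitors 6 or 7, PIAS1 highest. Of the 8 STAT target genes 4 to 7 were listed, BCL2L1 highest.

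Among these 59 genes, 25 had a leading region in all 10 Control and KD libraries of K562 and NB4. In the same test as above 5 of the 25 were lower in NB4 and 4 higher, shares near those of all regions (14.9% lower and 13.5% higher). The leading region of JAK2 was lower by 22.3 points, that of STAT5B by 44.1 points and that of EPOR, the erythropoietin receptor gene, by 64.8 points, while that of IL4R was higher by 62.6 points and that of CCND1 by 58.1 points (exact permutation, two-sided, adjusted p = 0.0353 for each). On RBFOX2 KD 1 of the 25, JAK2, had an unadjusted p under 0.05 (12.8 points, exact p = 0.0167), against 6.98% of all regions, and none passed after adjustment.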

How the data were processed

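m6A-IP sequencing of caRNA gave 14 peak lists, 1 per IP library. The 14 input libraries were not analysed here. Per the study's methods, the authors trimmed reads (Trimmomatic 0.39), aligned them to hg38 with HISAT2 2.1.0 (GENCODE 29), split them by strand (SAMtools 1.9) and called peaks per library with MACS2 (effective genome size 130000000, extension 150 bases, up to 5 duplicates, q threshold 0.01). Whether inputs served as control is not given in the sources used here. The deposited columns hold a score, a fold (the ratio of pileup to local background) and −log10 p and −log10 q, and none is a count. From these the pileup and the effective reads of each list were recovered. The recovery of whole pileups was tested on simulated data, and that of the effective reads was not. HepG2 WT 1, HepG2 WT 2 and NB4 Control 3 held rescaled pileups. Their scales (0.418, 0.744 and 0.883 on the plus strand) were fitted to the values, a step not tested on simulated data.

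Genes came from GENCODE 44 (hg38), and peaks on chromosomes outside the 22 autosomes, X and Y were left out. Peaks were merged by strand, with the best peak per library kept in each region. Percentiles are ranks of −log10 q within a list. Groups were compared by two-sided exact permutation tests over libraries on regions listed in every library used, with Benjamini-Hochberg adjustment over all of them and a threshold of 0.05. A lost or gained region was in every library of one group and in none of the other. Alternatives were pileups scaled to the shallowest list (which did not equalise list sizes), ranks by fold, a −log10 q of at least 5, windows of 150 bases around summits, a replicate block and each library left out. Text names all members, the 3 most similar genes, the highest gene of each pathway list and examples of its called genes. Members and lists were chosen with earlier results of these data known. Python 3.11.15, NumPy 2.4.6, pandas 2.3.3, SciPy 1.17.1, numba 0.67.0 and matplotlib 3.10.9 were used.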

Additional observations from a re-analysis of the deposited data

Results flagged for a closer look

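The change of SOCS4 on RBFOX2 KD differed between the lines by -19.3 percentile points (K562 minus NB4, -4.17 in K562 and 15.1 in NB4, p = 0.0167 by exact permutation, its lowest possible value, and 0.428 after adjustment). It was -21.0 to -17.6 points with each library left out and -13.0 points when peaks were ranked by fold. The change of the SOCS7 exon 1 region differed by 19.51 points (4.61 in K562 and -14.9 in NB4, p = 0.0333 by exact permutation and 0.43 after adjustment) and by 13.8 to 24.9 points with each library left out. Both were singled out by the unadjusted test of the difference, which 7.75% of all regions passed, and neither passed after adjustment. Their cause was not tested.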

How the results depend on the processing

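The lists set most limits. A site that did not pass the caller's threshold could not be seen, and transcript levels were not measured. With 2 or 3 libraries per group few exact p-values are possible. Of the summary counts, 329 recomputed values stayed within 1.5 times the reported ones and 29 did not. The 329 include counts of regions that passed within K562, within NB4 and between WT cells. They also include counts with a replicate block that paired same-numbered Control and KD libraries. Those were for KD over both lines and for the difference between lines, with too few arrangements for a p under 0.05. All of these counts could only be 0, so their agreement carries no information. The count of SOCS leading regions that differed between NB4 and K562 was 3, was 1 with windows of 150 bases around each summit and 0 with the replicate block, and was 0 to 0 with each library left out. Over all regions it was 2989, 0 with the block and 0 to 0 with each library left out, when the smallest p could not pass after adjustment. With the block the adjusted p was 0.231 for CISH, SOCS4 and SOCS6. This block paired same-numbered K562 and NB4 libraries and left out NB4 Control 3 and NB4 KD 3. Too few arrangements remained for any region to pass, so the 0 with the block was fixed in advance. Same-numbered Control and KD libraries did not deviate together (correlations over regions of -0.0849 in K562 and -0.154 to -0.0502 in NB4). Whether they were prepared together cannot be told from these values. SOCS regions in every HepG2 and no K562 library were 0, and 1 with summit windows (0 to 1 with a library left out, 1 without HepG2 WT 1). Those in every K562 and no HepG2 library were 1 to 2 (2 without K562 KD 2). Regions lost on KD in K562 were 1, and 1 to 3 with a library left out (2 without K562 Control 1, 3 without K562 KD 1), and those gained in NB4 were 0 to 1 (1 without NB4 KD 3). Genes listed per group could not be recomputed in groups of 2 with a library left out. Several differences that had not passed a test changed sign. For SOCS5 the difference between lines in the KD change was 1.19 by the rank of the fold, by which the KD change in NB4 also changed sign for SOCS5 (-3.17) and SOCS2 (2.64), as did K562 WT minus HepG2 WT for SOCS4 (0.46). With each library left out, the SOCS2 difference between lines ranged from -6.82 to 4.28, the SOCS5 KD change over both lines from -1.60 to 0.37 points and from -0.21 to 0.14 on the log2 scale of the fold, SOCS5 in NB4 minus K562 from -1.74 to 0.24, and the SOCS6 KD change from -7.20 to 2.09. Within lines, the KD change in NB4 ranged from -6.25 to 12.3 for SOCS6, -5.71 to 1.62 for SOCS2 and -0.41 to 3.53 for SOCS5, and that in K562 from -12.6 to 3.24 for SOCS3, -9.29 to 1.81 for SOCS2, -0.74 to 9.95 for SOCS7 and -0.83 to 1.13 for CISH. K562 WT minus HepG2 WT ranged from -8.04 to 3.14 for SOCS4.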
